A study of Mus musculus with 4 samples.

Results

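The potassium channel family was examined in ureters of mouse embryos whose genotype combined floxed alleles of the fibroblast growth factor receptor genes Fgfr1 and Fgfr2 with a cre allele at Tbx18. Members were taken as all non-control probes on the array whose gene name begins with Kcn, and each probe of a gene was kept as a measurement of its own. This gave 149 probes under 98 gene names, of 39429 probes in all. Of the 98 names, 4 denote long RNAs and not channels: Kcnq1ot1, Kcnd3os, Kcnmb4os1 and Kcnmb4os2.

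RNA came from ureters of NMRI embryos at E14.5 (embryonic day). The mutants, called cDKO (conditional double knockout), carried a cre allele at Tbx18, written Tbx18(cre/+), on top of Fgfr1(fl/fl) and of Fgfr2(fl/fl), so that the Tbx18 locus drove the recombinase and itself kept a single unmodified copy. Controls were Fgfr1(fl/?) and Fgfr2(fl/?), that is floxed on at least a single copy of both genes, and their labels list no cre. All 4 arrays were two-colour hybridisations that set cDKO RNA against control RNA of the same sex label. The cDKO RNA carried Cy5 on replicates 1 and 3 and Cy3 on replicates 2 and 4. Replicates 1 and 4 were labelled female, and replicates 2 and 3 male. Which or how many embryos gave each extract is not in the labels, and the p-values therefore reflect only how much the 4 pairs differed, which may be technical.

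Potassium channels let potassium ions leave the cell, which holds the membrane potential at rest, ends action potentials and limits calcium entry through voltage-gated calcium channels. The family divides into voltage-gated pore subunits, channels opened by intracellular calcium or sodium, inward rectifiers, tandem-pore channels that carry background current, and auxiliary subunits that alter gating or transport. In the ureter, contraction of the smooth muscle coat drives urine towards the bladder, and potassium channels of muscle and pacemaker cells set the excitability of that coat, while channels of epithelial cells take part in potassium transport.

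The results turn on the probes of Kcnma1 and Kcnd3. Kcnma1 encodes the pore subunit of the BK channel, a channel of large conductance that opens with calcium and depolarisation. Kcnd3 encodes a pore subunit of the Kv4 group, which carries a transient A-type current. Both are shown by the first 30 of the 60 bases of each probe, in lower case from the 5′ end as the deposited files give them, because the Kcnma1 probes gave ratios of different size and only 1 of the Kcnd3 probes was detected. Their order below runs along each gene. On build mm9, the Kcnma1 probes lie on the minus strand at chr14:24130916-24130975 (A_51_P187352), chr14:24126279-24126338 (A_55_P2378486), chr14:24118701-24118760 (A_55_P2071656) and chr14:24111708-24111767 (A_51_P274073). The Kcnd3 probes lie on the plus strand at chr3:105471938-105471997 (A_55_P1965488) and chr3:105476854-105476913 (A_66_P122219). An annotation of mm9 was not used here, so exon or intron is not given for any probe.
Kcnma1 A_51_P187352: tggtgatctgttctgcaaagctctgaaaac
Kcnma1 A_55_P2378486: tgggtgggcagtcaatgtatacatgtaaat
Kcnma1 A_55_P2071656: agattccttgatgcacatttctcttctttc
Kcnma1 A_51_P274073: agagcgtggtttgtttctttgtctttcaca
Kcnd3 A_55_P1965488: taatttgaaagcagacgatggactgagacc
Kcnd3 A_66_P122219: tactgagtcctgtgccactgctgtacctga

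Across the whole array, 25591 of 39429 probes (64.9%) passed the filter, which asked for 3 or more of the 4 spots of a probe to be well above background on every array, in either the cDKO or the control channel. Of the targeted genes, Fgfr1 had 3 kept probes fitted between -0.54 and -0.032, 1 of them called lower, and Fgfr2 had 2 kept probes at 0.56 and 0.59, 1 of them called higher in the channel labelled cDKO. Where these probes lie relative to the floxed exons was not examined here, so they do not check the labels, and every direction given for a Kcn probe rests on the genotype and dye labels. Between 64.9% and 72.6% of spots in a channel were well above background, and no spot was saturated. Replicates 1 and 2 lay on slide 1 and replicates 3 and 4 on slide 2, which was scanned on another scanner. The correlation of log2 ratios over all kept probes ran from 0.0144 between replicates 2 and 3 to 0.518 between replicates 1 and 2. A probe is called where limma's adjusted p, over all kept probes, is under 0.05, and 152 probes were called, 95 higher and 57 lower in cDKO.

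Of the 149 Kcn probes, 77 (51.7%) passed the filter and 48 (32.2%) were not well above background in either channel of any array. The latter share was 26.3% over all probes. Of the kept probes, 4 passed through the cDKO channel only (among them Kcnma1 A_51_P187352 and Kcnq3), so a ratio above 0 was favoured by the filter for them, and 0 passed through the control channel only. A kept probe was available for 61 gene names and none for the other 37. The kept share of probes was 47.8% among voltage-gated pore subunits (32 of 67), 60% among calcium- or sodium-activated channels (9 of 15), 50% among inward rectifiers (10 of 20), 56.2% among tandem-pore channels (9 of 16), 53.8% among auxiliary subunits (14 of 26) and 60% among the long RNAs (3 of 5). Detection of a member does not locate it to a cell type, and in these bulk samples fewer cells of a type and less RNA per cell cannot be told apart.

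In cDKO ureters, 4 of the 77 kept Kcn probes rose and 0 fell: 3 probes of Kcnma1, between 1.61-fold and 2.06-fold, and 1 probe of Kcnd3, 1.86-fold. The share that rose was 5.19%, against 0.371% of all kept probes, and the share that fell was 0%, against 0.223%. At an unadjusted p under 0.05 in limma there were 23 Kcn probes (29.9%, against 18.9% of all kept probes), 19 higher and 4 lower in cDKO. The ratio was above 0 on all 4 arrays for 18 Kcn probes (23.4%, against 13% of all) and below 0 on all 4 for 7 (9.09%, against 11.8%). Both the 19 and the 18 include all 4 kept Kcnma1 probes, so they are not counts of separate genes. Both also include Kcnq3, which passed the filter through the cDKO channel only, as did Kcnma1 A_51_P187352. The 18 further include Kcna3, which also passed through the cDKO channel only and is named after its values were seen. The median log2 ratio of the kept Kcn probes was 0.053, against 0.0074 over all kept probes, and the median size of the ratio regardless of sign was 0.099 in both. An absolute log2 ratio over 0.5 was reached by 6 Kcn probes (7.79%, against 2.27%). The fitted ratio was above 0 for 62.3% of the kept Kcn probes, against 52.4% of all kept probes. The number of Kcn probes above 0 was 48, 38, 41 and 44 on replicates 1 to 4. The count of called Kcn probes was 0 without replicate 1, 0 without replicate 2, 2 without replicate 3 and 5 without replicate 4. It was also 0 without the filter, with a sex term, within slide 2 alone and with an intensity trend in the variance, although no called probe changed direction in any of these. With slide as a block it was 14 of 77, 13 higher and 1 lower. In that setting 3139 of all 25591 kept probes were called, 1962 higher and 1177 lower. Without a dye term it was 6 of 77, 5 higher and 1 lower, against 297 of all 25591. The lower Kcn probe was Kcnk6 in both.

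Among the calcium- or sodium-activated channels, the 3 calls all came from Kcnma1, and the other 6 of 9 kept probes did not pass. The Kcnma1 probe farthest downstream, A_51_P274073, had channel levels of 10.73, 10.83, 11.05 and 11.07 in cDKO and 9.90, 9.92, 9.87 and 9.89 in control on replicates 1 to 4 (log2 intensity). The control levels lay close together, every cDKO level was higher than every control level, and the slide 2 arrays had the larger ratios. Its log2 ratios were 0.83, 0.91, 1.18 and 1.18, and the fit gave 1.02 ± 0.09 (SE, n = 4), a fold of 2.03, with an adjusted p of 0.0286 in limma.

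The Kcnma1 probe A_55_P2071656 had levels of 9.75, 9.63, 9.75 and 9.78 in cDKO and 8.72, 8.94, 8.47 and 8.60 in control. Again the groups did not overlap, and replicate 2 had both the lowest cDKO level and the highest control level. Its log2 ratios were 1.03, 0.69, 1.28 and 1.17, fitted at 1.04 ± 0.10 (SE, n = 4; adjusted p = 0.0332). The probe A_55_P2378486 had levels of 9.96, 9.73, 10.01 and 9.83 in cDKO and 9.05, 9.38, 8.92 and 9.46 in control, and log2 ratios of 0.92, 0.35, 1.10 and 0.37, fitted at 0.68 ± 0.07 (adjusted p = 0.034). The groups did not overlap, but the ratio was higher on the 2 arrays with cDKO in Cy5 than on the 2 with cDKO in Cy3. The dye term of this probe had an unadjusted p of 0.00394 and an adjusted p of 0.407, and without a dye term its genotype call was lost (adjusted p = 0.0694).

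The Kcnma1 probe farthest upstream, A_51_P187352, was dim, with levels of 7.29, 7.23, 7.47 and 7.50 in cDKO and 6.87, 7.01, 6.84 and 6.93 in control, and was well above background on 4 cDKO and 3 control arrays. It was thus kept through the cDKO channel, where it was higher, and its ratio is given as a description. Its log2 ratios were 0.42, 0.22, 0.63 and 0.57, fitted at 0.46 ± 0.09, and it did not pass the test (adjusted p = 0.0818). With the scanner software's processed signals in place of the offset-corrected ones, its ratio was 0.94. It was 0.92 from the authors' deposited values, and both are likewise given as a description. The 3 probes detected on all arrays in both channels were above 0 on every array, and the difference in size between probes was not tested.

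The remaining kept probes of this role lay between -0.061 and 0.15. Kcnn2 and Kcnn3 encode small-conductance calcium-activated channels. Kcnn2 (A_51_P309854) had log2 ratios of 0.27, -0.015, -0.034 and 0.36. Kcnn3 had a probe fitted at -0.061 ± 0.07 (A_51_P508300: -0.056, 0.062, -0.15 and -0.098) and another at 0.069 ± 0.08 (A_55_P1997554: 0.0031, 0.13, -0.15 and 0.30), so its probes lay on opposite sides of 0 by less than their errors. Kcnn4, the intermediate-conductance channel of epithelial and blood cells, was well above background on 2 arrays in either channel and was not kept. The sodium-activated Kcnt2 was fitted at 0.0016 ± 0.09 and the testis-type channel Kcnu1 at -0.045 ± 0.08, while neither probe of Kcnn1 or Kcnt1 was detected.

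The auxiliary beta subunits of the BK channel did not pass the test. Kcnmb2, an inactivating beta subunit, had log2 ratios of 0.33, 0.099, 0.63 and 0.26, fitted at 0.33 ± 0.08 (SE, n = 4; adjusted p = 0.129), and was above 0 on every array although its channel levels overlapped. Kcnmb4, the beta subunit best known from neurons, had probes that disagreed in size. A_55_P2090330 gave 0.24, 0.12, 0.16 and 0.30, fitted at 0.21 ± 0.07 (adjusted p = 0.22), with cDKO levels of 13.00, 12.95, 12.92 and 13.01 all above the control levels of 12.76, 12.83, 12.75 and 12.71, whereas A_55_P2161353 gave -0.02, -0.14, -0.068 and 0.28, fitted at 0.011 ± 0.09. Kcnmb1, the beta subunit of smooth muscle, was well above background on 0 cDKO and 3 control arrays, with levels of 6.60, 6.66, 6.74 and 6.59 in cDKO and 6.83, 6.87, 6.73 and 6.68 in control. Where a cDKO level lay below the dimmest signal still called well above background, it was raised to that signal. Set against the mean of these cDKO levels, the mean control level was 1.08-fold. That control mean includes the array that was not well above background. On replicate 3 the cDKO level was not below the control level and the groups overlapped, so no direction is given. Kcnmb1 was not tested. Kcnmb3 was not detected. Of the BK gamma subunits, which are leucine-rich repeat proteins outside the Kcn names, Lrrc38 and Lrrc55 were kept at -0.024 and -0.065, and Lrrc26 and Lrrc52 were not kept.

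Among the voltage-gated pore subunits, Kcnd3 rose and the other 31 of 32 kept probes did not pass. The Kcnd3 probe A_66_P122219 had levels of 12.21, 12.27, 12.07 and 12.00 in cDKO and 11.18, 11.48, 11.13 and 11.17 in control. No cDKO level reached down to the control levels, and the ratios were much alike on both slides and with both dye orientations. The log2 ratios were 1.03, 0.78, 0.94 and 0.83, fitted at 0.90 ± 0.07 (SE, n = 4; adjusted p = 0.0286), with means of 0.91 on slide 1 and 0.89 on slide 2. The other Kcnd3 probe, A_55_P1965488, was not well above background on any array in either channel and gave no measurement. Kcnd3os, a long RNA named for its position opposite Kcnd3, was well above background on 3 arrays in either channel, was not kept, and had log2 ratios of 0.22, 0.16, 0.19 and 0.61, above 0 on every array.

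The partners of Kv4 channels gave fewer values. Of the calcium-binding Kcnip subunits, which raise Kv4 current, Kcnip3 was kept with probes at -0.018 ± 0.07 and -0.032 ± 0.07, Kcnip4 with 1 probe at 0.15 ± 0.08, and Kcnip1 and Kcnip2 with none. Dpp6, a transmembrane partner of Kv4 outside the Kcn names, had log2 ratios of 0.48, 0.65, 0.36 and 0.48, fitted at 0.49 ± 0.08 (adjusted p = 0.0537), and Dpp10 was at 0.082 ± 0.08. The pore subunits Kcnd1 and Kcnd2 of the same group did not pass: Kcnd1 had probes at -0.017 ± 0.08 (0.13, -0.18, -0.025 and 0.012) and 0.077 ± 0.07 (0.12, 0.13, -0.037 and 0.088), on opposite sides of 0, and Kcnd2 was at 0.0052 ± 0.09.

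The next largest ratio among voltage-gated subunits was that of Kcnc2, a subunit of fast delayed rectifiers. Its levels were 8.21, 8.03, 8.02 and 8.31 in cDKO and 7.47, 7.46, 7.61 and 7.85 in control, which did not overlap. Its log2 ratios were 0.73, 0.57, 0.41 and 0.46, fitted at 0.54 ± 0.08 (adjusted p = 0.0543). Kcnc2 therefore missed the threshold, as did Kcnv2, a silent subunit that modifies other pore subunits (0.43, 0.31, 0.064 and 0.28; 0.27 ± 0.09; adjusted p = 0.182). Kcnh7, of the ether-a-go-go related group, had log2 ratios of 0.32, -0.093, 0.53 and 0.26, fitted at 0.25 ± 0.09 (adjusted p = 0.213). Its ratio on replicate 2 lay slightly below 0.

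The Kcnq genes encode slowly opening channels of heart, epithelia and neurons. Kcnq1 had probes that overlap in position (chr7:150612887-150612946 and chr7:150612896-150612955), so they are not independent measurements. They gave nearly the same values, 0.28, 0.54, -0.12 and -0.12 (A_55_P2086203) and 0.31, 0.47, -0.15 and -0.14 (A_55_P2094641). Both were above 0 on slide 1 and below 0 on slide 2. They were fitted at 0.14 ± 0.13 and 0.12 ± 0.13 and did not pass (adjusted p = 0.591 and 0.66). Kcnq3, named here after its values were seen, was even across arrays, with log2 ratios of 0.24, 0.24, 0.23 and 0.29 and levels that did not overlap (6.93 to 7.08 in cDKO; 6.69 to 6.85 in control). It was dim, was well above background on 4 cDKO and 3 control arrays, so that it was kept through the cDKO channel, and did not pass (fitted 0.25 ± 0.07; adjusted p = 0.152).

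The Kv1 group, Kcna1 to Kcna10 in the file's names, gave no call. Kcna5, a delayed rectifier of vascular and cardiac muscle, had probes at 0.19 ± 0.13 (A_52_P58283: 0.36, 0.56, 0.032 and -0.20) and -0.024 ± 0.08 (A_55_P2106891: 0.19, -0.22, -0.061 and -0.0025). Kcna7 had probes at 0.034 ± 0.08 (-0.005, -0.11, 0.30 and -0.047) and -0.061 ± 0.07 (0.073, -0.17, 0.058 and -0.21). For both genes the probes lay on opposite sides of 0, and none passed. Kcnc4, a fast inactivating channel, had the lowest ratio of the role, with -0.019, -0.39, 0.27 and -0.33, fitted at -0.12 ± 0.08 (adjusted p = 0.476); its ratio on replicate 3 was above 0. Over the role, 23 of 32 kept probes were fitted above 0, against 52.4% of all kept probes, and the median was 0.059.

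No inward rectifier passed the test, and 5 of the 10 kept probes were above 0 (median 0.0058). Kcnj10 and Kcnj16 encode inward rectifier subunits that can form a joint channel in kidney epithelium and glia. Kcnj10 had levels of 9.06, 9.29, 9.20 and 9.01 in cDKO and 8.34, 8.33, 8.44 and 8.63 in control, which did not overlap, and log2 ratios of 0.72, 0.96, 0.76 and 0.38. It was fitted at 0.71 ± 0.11 (SE, n = 4; fold 1.63) with an adjusted p of 0.0537, just short of the threshold, and it passed in 7 of 17 alternative settings.

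Kcnj16 had levels of 12.67, 12.87, 12.82 and 12.87 in cDKO and 12.52, 12.28, 12.40 and 12.42 in control, and the groups did not overlap. Its log2 ratios were 0.15, 0.60, 0.42 and 0.45, fitted at 0.40 ± 0.08 (adjusted p = 0.0898), with the smallest ratio on replicate 1. Kcnj2, a strong inward rectifier of muscle whose probe lies 46.9 kb from that of Kcnj16 on chromosome 11, was below 0 on every array (-0.13, -0.03, -0.047 and -0.41; -0.15 ± 0.09; adjusted p = 0.392).

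The inward rectifiers known from contractile and pericyte cells showed no call. Kcnj8, the pore of the KATP channel of vascular smooth muscle and pericytes, had log2 ratios of 0.056, 0.35, -0.096 and -0.23, fitted at 0.018 ± 0.11, and its arrays fell on both sides of 0. Of its sulfonylurea receptor partners, Abcc9 was below 0 on every array (-0.075, -0.44, -0.47 and -0.70), fitted at -0.42 ± 0.10 (adjusted p = 0.108), and Abcc8 was at -0.033 ± 0.07. Kcnj13, an epithelial inward rectifier, had probes with -0.15, -0.59, 0.19 and 0.52 (A_55_P2066878) and -0.51, -0.28, -0.011 and 0.57 (A_55_P2081050), with means of -0.37 and -0.39 on slide 1 and of 0.35 and 0.28 on slide 2. Kcnj15 was at -0.028 ± 0.08 (0.089, -0.14, -0.11 and 0.047) and Kcnj14 at -0.089 ± 0.07 (-0.022, -0.12, 0.042 and -0.25). Kcnj1, the secretory channel of the kidney tubule, was not detected.

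The tandem-pore channels, which carry background current, held the lowest ratio among the kept Kcn probes, and 6 of 9 kept probes were below 0 (median -0.059), with no call. Kcnk6, a widely expressed weak tandem-pore channel, had levels of 10.88, 11.06, 10.96 and 11.02 in cDKO and 11.37, 11.38, 11.51 and 11.41 in control. Every cDKO level lay below every control level, the only kept Kcn probe of which this held (1.3%, against 3.25% of all kept probes). In contrast, cDKO levels lay wholly above control for 11 kept Kcn probes (14.3%, against 4.41%). These 11 included all 4 kept Kcnma1 probes. Kcnq3 and the Kcnma1 probe A_51_P187352, also among the 11, passed the filter through the cDKO channel only. The log2 ratios of Kcnk6 were -0.49, -0.32, -0.55 and -0.40, fitted at -0.44 ± 0.07 (SE, n = 4, fold 0.738, adjusted p = 0.0576 in limma). Kcnk6 was called lower in 2 of 17 alternative settings, with slide as a block (adjusted p = 0.00597) and without a dye term (adjusted p = 0.048), at the same ratio.

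Kcnk3, an acid-sensitive channel of pulmonary artery muscle and neurons, was below 0 on every array (-0.41, -0.25, -0.27 and -0.025) and fitted at -0.24 ± 0.08 (adjusted p = 0.187). Kcnk13 was also below 0 on every array (-0.26, -0.041, -0.22 and -0.33), fitted at -0.21 ± 0.08 (adjusted p = 0.234). Kcnk2, a mechanically gated channel found in smooth muscle, went the other way with 0.67, 0.12, 0.39 and 0.22, fitted at 0.35 ± 0.08 (adjusted p = 0.113), and was highest on replicate 1. Kcnk5 was above 0 on every array at 0.12 ± 0.07 (0.11, 0.18, 0.018 and 0.16), and Kcnk1 was at -0.0019 ± 0.08 (-0.024, -0.15, 0.29 and -0.13), with only replicate 3 above 0.

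The other auxiliary subunits gave no call. Kcne3, which partners Kcnq1 in epithelia, had probes with 0.13, -0.062, 0.50 and 0.18 and 0.071, -0.078, 0.54 and 0.19, fitted at 0.19 ± 0.09 and 0.18 ± 0.10, which matched within 0.1 on every array. Kcne4 was at -0.099 ± 0.08 (-0.19, -0.21, -0.041 and 0.044), and Kcne1l had probes at 0.099 ± 0.07 (-0.0056, 0.26, 0.029 and 0.11) and -0.14 ± 0.08 (-0.44, -0.088, -0.21 and 0.16), on opposite sides of 0. Kcnrg, a regulator of channel assembly, was at -0.092 ± 0.09 (-0.045, -0.43, 0.13 and -0.022). Kcnab3, a cytoplasmic beta subunit named after its values were seen, was above 0 on every array (0.24, 0.27, 0.12 and 0.25; 0.22 ± 0.07; adjusted p = 0.188), with levels that did not overlap. Kcne1 and Kcnab2 were not detected. Of 14 genes with several kept probes, 9 had all of them on the same side of 0, among them Kcnq1, whose probes overlap.

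The long RNA Kcnq1ot1 is transcribed antisense within the Kcnq1 gene from the paternal copy of an imprinted region. Its probe A_55_P2408415 was below 0 on every array (-0.31, -0.16, -0.23 and -0.17), fitted at -0.22 ± 0.07 (adjusted p = 0.185). Its other probe, A_55_P2196922, had -0.15, -0.53, -0.16 and 0.72, fitted at -0.032 ± 0.19, and replicate 4 went against the others. Kcnmb4os2 was above 0 on every array at 0.19 ± 0.08 (adjusted p = 0.264), and Kcnmb4os1 was not detected.

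The slides were compared because replicates of the same slide shared a scanner. The effect of genotype differed between slides for 1 of the 77 kept Kcn probes (1.3%, against 1.06% of all kept probes), Kcns3, a silent subunit named after its values were seen. Kcns3 had log2 ratios of 0.26, 0.87, -0.41 and -0.48, a mean of 0.57 on slide 1 and -0.44 on slide 2, a difference of 1.01 (adjusted p = 0.0401 in limma). Kcns3 was therefore fitted near 0 over all arrays (0.062 ± 0.22) with the largest SE of the kept Kcn probes. Of the called probes, Kcnma1 A_51_P274073 had means of 0.87 and 1.18 on slides 1 and 2, A_55_P2071656 0.86 and 1.22, and A_55_P2378486 0.63 and 0.73. Of the probes just short of the threshold, Kcnj10 had means of 0.84 and 0.57, Kcnc2 of 0.65 and 0.44 and Kcnj16 of 0.37 and 0.44, all above 0 on both slides, and Kcnk6 had -0.40 and -0.47, below 0 on both. Limma found no difference in the effect of genotype between the sex labels for any kept Kcn probe at an adjusted p under 0.05 (0 of 77, against 0% of all kept probes). Each array paired RNA of the same sex label, so the ratios do not measure a difference in level between the sexes. At an unadjusted p under 0.05 the sex term gave 0 Kcn probes and 254 of all kept probes. By the layout of the arrays, the sex term cannot be told apart from a dye effect that differed between slides. Likewise, the slide term cannot be told apart from a dye effect that differed between sex labels. Dye effects gave 0 calls among the Kcn probes and 0 among all kept probes. At an unadjusted p under 0.05 the dye term gave 4 of 77 Kcn probes, against 2169 of all 25591 kept probes. Among the 4 was Kcna4, a transient voltage-gated channel named after its values were seen. Its ratios of 0.58, -0.71, 0.88 and -0.41 changed sign with the dye orientation.

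Genes that work with potassium channels under other names were examined as a list of 27, of which 22 were kept, 0 rose and 0 fell. Of the 22, 15 were fitted above 0, against 52.4% of all kept probes. The median log2 ratio was 0.099, against 0.0074 over all kept probes. The calcium channels Cacna1h and Cacna1g were at 0.35 ± 0.09 (adjusted p = 0.138) and 0.29 ± 0.11 (adjusted p = 0.222), and Cacna1c, the pore of the L-type channel that triggers smooth muscle contraction, was at 0.19 ± 0.12 (adjusted p = 0.444). The calcium-activated chloride channel Ano1, a marker of intestinal pacemaker cells, was at 0.29 ± 0.10 (adjusted p = 0.194). Ryr2 and Hcn4 were among the members that were not kept.

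Markers of the cell types that a dissected ureter can hold were measured beside these values. Of smooth muscle markers, 7 of 7 were kept, 0 were called, and the median log2 ratio was 0.048, with a summed level (log2 of the summed intensity) of 13.53 to 14.71 in cDKO and 13.33 to 14.14 in control. Pericyte markers gave 0 calls among 6 (median 0.027; 14.335 to 14.504 against 14.083 to 14.507), neuronal markers 0 among 6 (0.058; 14.14 to 14.78 against 14.16 to 15.01) and glial markers 0 among 4 kept of 5 (-0.11; 16.07 to 16.41 against 16.01 to 16.49). The pericyte markers include Kcnj8 and Abcc9, whose values are already given above, so that list is not separate from the members and partners. Collecting duct and nephron markers gave 0 calls among 6 kept of 8 (0.089; 12.02 to 12.49 against 11.87 to 12.28), with Slc12a1 and Umod not kept, skeletal muscle markers 0 among 4 (0.16; 9.79 to 11.07 against 9.35 to 11.11), and ureteric mesenchyme markers 0 among 5 (0.38; 15.9 to 16.02 against 15.67 to 15.84). Among the other types, single markers were called lower, against 0.223% of all kept probes: 2 of 9 for urothelium (median -0.59; 16.97 to 17.31 against 17 to 17.11), 2 of 5 erythroid (-0.34; 17.22 to 17.59 against 17.63 to 17.83), 1 of 5 endothelial (-0.27; 13.81 to 14.03 against 13.93 to 14.42) and 1 of 4 mesothelial (-0.35; 13.1 to 13.79 against 12.98 to 13.57, so that the summed level was not lower although Msln was called). Macrophage markers gave 0 calls among 5, all 5 below 0 (-0.42; 13.49 to 13.83 against 13.94 to 14.18). The summed levels of mesenchyme markers (higher), and of erythroid and macrophage markers (lower), did not overlap between the groups. Of single kept probes on the whole array, 4.41% were wholly higher and 3.25% wholly lower in cDKO. The mesenchyme markers were not uniform: 4 were fitted above 0, but Tcf21 was below 0 on every array (-0.18, -0.25, -0.36 and -0.29). The 4 include Tbx18, the locus of the cre allele, at 0.26. The part of the markers' cell types in the ratios of Kcnma1, Kcnd3 or the other members was not tested.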

How the data were processed

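Gene expression was measured on 4 two-colour Agilent arrays of ureter RNA, and each array paired cDKO with control. Per the labels' protocols, 150 ng of total RNA was amplified and labelled. Spot values came from Agilent Feature Extraction 10.7.3.1, per the submitters' processing notes. The deposited scanner files give mean and local background intensity per spot, processed intensity, and log10 ratios of red over green, not normalized between arrays, with coordinates on mm9 per the file headers. The authors' deposited value table holds a signed fold per probe and array; its direction was settled against the scanner values (correlation with cDKO over control 0.8377 to 0.8634 across probes), its column medians are 1, and how it was centred is unknown. All per-sample columns were mapped.

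Mean intensity was background-corrected by normexp with offset 50, log2 ratios were normalized by loess (span 0.3) within arrays, control and outlier spots were left out, and the 4 spots of a probe were averaged. The offset shrinks the ratios of dim probes. Channel levels are log2 intensities after quantile scaling between arrays. Ratios were fitted with limma 3.58.1 in R 4.3.3 (lmFit, eBayes) with a dye term, two-sided, with Benjamini-Hochberg adjustment over 25591 kept probes. The fit had 2 residual and 4.48 prior degrees of freedom and was tested on simulated data. Fits with a sex or slide term left 1 residual degree of freedom. Gene names are those of the array files; 137 of the 149 Kcn probes matched the same symbol in RefSeq and 12 matched none.

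The members and lists (roles, partners, cell type markers) were chosen with earlier results of these data known. Values on every array are given for called probes, the 10 largest rises and falls (a probe per gene), genes whose kept probes disagreed or were called, partners of Kcnma1, and genes known in smooth muscle, pericytes or epithelia. A few genes that this rule or the lists cover are not reported here. Only 4 arrays limit the precision. Alternatives changed the background correction, normalization, filter, probe choice, model terms and arrays.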

Additional observations from a re-analysis of the deposited data

How the results depend on the processing

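The 4 called Kcn probes numbered 0 without the filter on dim probes, 14 with slide as a block (13 higher and Kcnk6 lower), 0 with a sex term, 0 within slide 2 and 0 with an intensity trend, and 0 to 5 when each replicate was left out in turn. They numbered 3 to 6 under the other 8 alternatives, with Kcnk6 called lower among the 6 without a dye term. The 152 called probes of the whole array became 322 with median centring, 1 without the filter, 230 with a stricter filter, 297 without a dye term, 3139 with slide as a block, 2 with a sex term, 909 within slide 1, 0 within slide 2, 0 with an intensity trend, and 1 to 286 when each replicate was left out. At an unadjusted p under 0.05, limma gave 1705 probes within slide 2 and 4779 with the intensity trend. The cause was not tested; the fits within a slide, with a sex term or without a replicate had 1 residual degree of freedom, and the fit without the filter tested 39429 probes. Kcnd3 ranged from 0.87 to 0.92 and was called in 11 of 17 alternatives. The Kcnma1 probes ranged from 0.87 to 1.18 (A_51_P274073, called in 11 of 17), 0.86 to 1.22 (A_55_P2071656, 9 of 16) and 0.63 to 0.74 (A_55_P2378486, 7 of 16), with none of these turning sign. Of the 41 named kept probes that were not called, 17 turned sign under some alternative and 9 were called under some alternative.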

Other observations

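Kcna1, a voltage-gated channel of neurons that was not kept, was well above background on 3 cDKO arrays and 1 control array, with log2 ratios of 0.14, 0.039, 0.85 and 0.13.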
